A study of Mus musculus with 13 samples.

Results

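Enzymes that break down glucose to pyruvate and lactate, and enzymes that make and break down glycogen, were followed in C2C12 myoblasts depleted of YBX3, an RNA-binding protein. The group held 33 genes, chosen by symbol and matched to the Ensembl identifiers of the deposited table, and all 33 were found among its 55642 genes. Of these, 32 had enough counts to be tested, among 16848 genes tested in all. The remaining gene, Pygl, which encodes the liver form of glycogen phosphorylase, had 1 count in 1 library and 0 in the other 12. It was listed in the table but not tested.

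C2C12 is an established mouse myoblast line, and all 13 RNAseq libraries came from it. Cells received nontargeting siRNAs (siNT, control KD) or siRNAs to YBX3 (siYBX3, YBX3 KD) and were harvested 48 h after transfection. At 0 day they were proliferating myoblasts kept in fetal bovine serum, with 4 control KD and 4 YBX3 KD libraries (replicate letters A to D). At 1 day they had spent the last 24 h in horse serum to start differentiation, with 2 control KD (C and D) and 3 YBX3 KD libraries (B to D). The titles call the libraries biological replicates of this 1 line.

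Library totals ranged from 33451547 to 71811371 estimated counts. Levels are given as CPM, each gene's count scaled by the TMM-adjusted total of its library. Ybx3 mRNA, the check of the knockdown, averaged 311 ± 29.2 CPM with siNT (SD, n = 6) against 45.0 ± 13.2 CPM with siYBX3 (SD, n = 7). The myoblast markers Myf5, Des and Cdh15 were present in each group. Myod1 was low, at 0.601 to 1.80 CPM with siNT and 1.15 to 3.32 CPM with siYBX3, and higher with siYBX3 in each of 6 pairs (log2 fold change 1.11, SE 0.292, adjusted p = 0.0726, edgeR, or 0.0155 once the letter is a block), and its part in the results was not tested. The summed level of the 6 genes on the myoblast list was 190 to 263 CPM, while Pax7 was near 0 and Msgn1, not itself a myoblast marker, was at 0. The 10 markers of differentiating muscle summed to between 7.75 and 38.3 CPM at 0 day and between 7.55 and 73.4 CPM at 1 day, so the time points overlapped. The 4 libraries of letter D differed from letters A to C in 25.5% of all tested genes in the higher and 23.3% in the lower direction (edgeR, adjusted p under 0.05, a comparison added after seeing the data). For YBX3 KD, the genes described in most detail are therefore also given from letters A to C only.

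As background, hexokinase traps glucose in the cell as glucose 6-phosphate, phosphofructokinase commits it to glycolysis, and aldolase splits the sugar into triose phosphates. The later, pay-off steps run from glyceraldehyde-3-phosphate dehydrogenase through phosphoglycerate kinase, phosphoglycerate mutase and enolase to pyruvate kinase and return ATP, and lactate dehydrogenase then regenerates NAD+. Muscle also stores glucose as glycogen, which glycogen synthase and the branching enzyme build and glycogen phosphorylase takes apart. Phosphorylase exists as muscle (Pygm), liver (Pygl) and brain (Pygb) forms, and phosphorylase kinase switches it on.

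The sequences below were examined because an siRNA can also pair, through bases 2 to 8 of its antisense strand (the seed), with untranslated regions of other mRNAs. The study lists 4 mouse YBX3 siRNAs, 05 to 08, and its methods name no single one for the RNAseq. In other experiments the paper used a pool of YBX3 siRNAs as well as single ones. The 3′ untranslated regions of the GENCODE vM39 canonical transcripts (GRCm39) were searched on the mRNA strand for the letters complementary to each seed. The seed of siRNA 08 had a match (GCAAGTA) in 1 of the 33 genes, Pygb, against 6.83% of 12930 tested genes with an annotated region. The seed of siRNA 05 had a match (CAACTAT) in Aldoa and Pfkp, against 6.71% of these genes. The seeds of siRNA 06 (GCTACTA, 4.90% of genes) and siRNA 07 (GATATGG, 5.97%) had none among the 33 genes. Seeds of the listed nontargeting siRNAs also had matches. These were in Hk2, Pfkfb3, Pdk1 and Phkb for 02 (24.9% of genes) and in Hk2, Gys1, Gbe1, Ugp2 and Phkb for 03 (29.5%). For 04 (31.8%) they were in Pfkm, Aldoc, Pfkfb3, Pfkfb4, Gys1 and Phka1, and 01 had none. Their part in the results was not tested. In the antisense strands capitals mark the seed, and in the sites they mark the match.
siRNA 08 antisense strand: aUACUUGCguggguuguuu
Pygb site, chr2:150673172-150673194, plus strand: cctttttaGCAAGTAaaccttga
siRNA 05 antisense strand: uAUAGUUGuagggacgucg
Aldoa site, chr7:126394408-126394430, minus strand: ccaataaaCAACTATttaagggg
Pfkp site, chr13:6630973-6630995, minus strand: taaaaggaCAACTATgaattagt
The Pygb match starts at base 746 of a 3′ untranslated region of 1244 bases. The Aldoa match starts at base 169 of 185 and the Pfkp match at base 509 of 1698. A match is a description of these letters, and whether any siRNA paired there was not measured.

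In control KD cells the 10 most abundant genes of the group were all enzymes of the main glycolytic route. Levels between genes are compared per kilobase of the canonical transcript, over the 6 control KD libraries. Gapdh (glyceraldehyde-3-phosphate dehydrogenase) was at 1304 ± 141 CPM per kb (SD, n = 6), Aldoa (aldolase) at 837 ± 183 and Ldha (lactate dehydrogenase) at 667 ± 57.0. Pkm (pyruvate kinase, 541 ± 28.1), Eno1 (enolase, 529 ± 29.5), Pgk1 (phosphoglycerate kinase, 518 ± 72.7) and Pgam1 (phosphoglycerate mutase, 514 ± 25.1) followed and did not differ from each other beyond their SD. Tpi1 (triosephosphate isomerase, 448 ± 77.6), Eno3 (the muscle enolase, 222 ± 24.6) and Gpi1 (glucose-6-phosphate isomerase, 211 ± 70.5) came next. With the length of all exons of a gene in place of the canonical transcript, the top gene was Pgam1, ahead of Gapdh, so the order within this top group depended on the length used. Near-identical copies of Gapdh and Eno1 carried 104% and 115% of their counts and are left out of these levels. With the copies added, Eno1 averaged 2595 ± 152 CPM in control KD, beside 1213 ± 67.7 CPM without them. Its place in the order therefore also depended on how reads of copies are assigned. By canonical transcript Hk1 (67.0 ± 7.93) and Pfkl (65.3 ± 16.1), also of the main route, had lower means than the glycogen gene Pgm1 (84.6 ± 26.2).

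Most steps with several isozymes were carried by 1 of them. Per kilobase, Aldoa made up 99.98% of aldolase mRNA, Pgam1 99.9% of phosphoglycerate mutase, Ldha 99.3% of lactate dehydrogenase and Hk1 87.8% of hexokinase. Phosphofructokinase was shared by Pfkl (62.0%), Pfkm (25.2%) and Pfkp (12.8%), and enolase by Eno1 (69.3%), Eno3 (29.1%) and Eno2 (1.59%). The enolase shares leave out the near-identical copies of Eno1, and with them the share of Eno1 would be larger. Among glycogen phosphorylases, Pygb made up 97.7% and the muscle form Pygm 2.34%. The tested glycogen genes lay between Pgm1 (phosphoglucomutase, 84.6 ± 26.2 CPM per kb) and Phkg1 (the catalytic subunit of muscle phosphorylase kinase, 0.0832 ± 0.0349). Gys1 (glycogen synthase, 22.5 ± 3.93), Pygb (19.7 ± 0.896) and Ugp2 (which makes UDP-glucose, 17.4 ± 1.52) were close to each other.

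**Figure D1:**
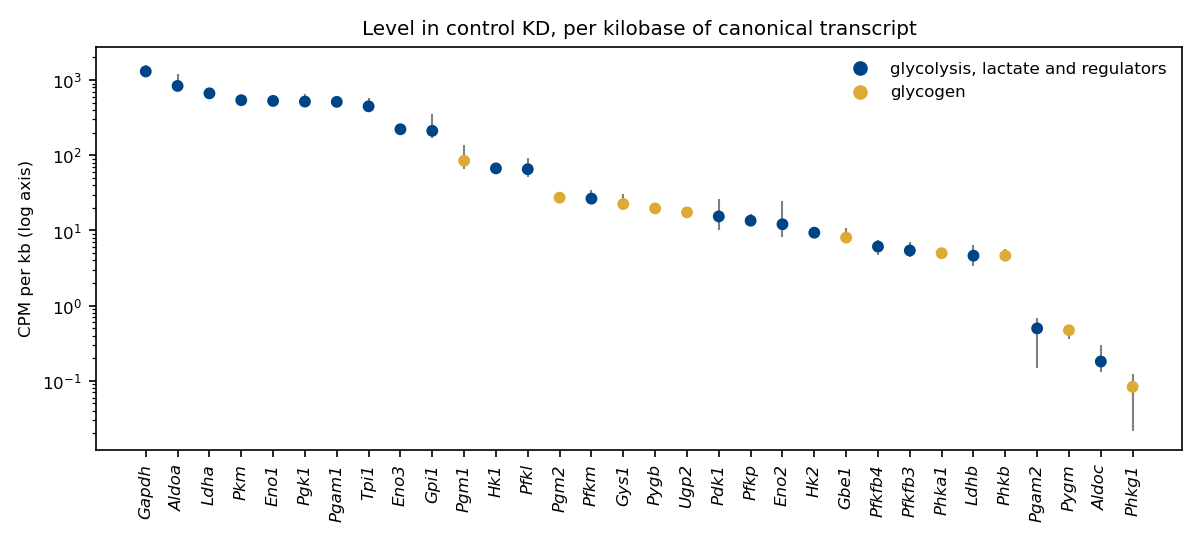
Level of each of the 32 tested genes in control KD, in CPM per kb of canonical transcript on a log axis; points are means of 6 libraries and bars run from the lowest to the highest library. Gapdh is highest at 1304 CPM per kb and Phkg1 lowest at 0.0832.

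The gene with the clearest difference after YBX3 KD was Pygb (ENSMUSG00000033059, chromosome 2, 150628628 to 150673685, plus strand, GRCm39), the phosphorylase that made up nearly all of this activity's mRNA. Its level was 74.4, 77.4, 76.6 and 73.5 CPM in the control KD libraries at 0 day (letters A to D) and 78.0 and 83.5 CPM at 1 day (C and D). In YBX3 KD it was 57.9, 55.1, 52.5 and 56.2 CPM at 0 day (A to D) and 51.9, 59.2 and 51.5 CPM at 1 day (B to D). The highest of the 7 YBX3 KD values lay below the lowest of the 6 control KD values, a separation seen for 1.08% of tested genes. Means were 77.2 ± 3.52 CPM with siNT (SD, n = 6) and 54.9 ± 3.05 CPM (SD, n = 7), or 71.1% of control. Over both time points the log2 fold change was -0.49 (SE 0.0540, adjusted p = 0.000681, edgeR's quasi-likelihood F test, adjusted over all tested genes by Benjamini-Hochberg).

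Pygb fell in this comparison at an adjusted p under 0.05, and it was the only 1 of the 32 tested genes to do so, against 1.04% of all tested genes in the lower direction. None of the 32 was higher at that threshold in edgeR or in DESeq2, against 1.29% of all tested genes in edgeR, while 4 were higher at an unadjusted p under 0.05, as were 1468 of all 16848. At the thresholds of the study (fold change above 1.3 and adjusted p under 0.001) Pygb was called lower, as were 0.107% of tested genes. That call was lost with the replicate letter as a block (log2 fold change -0.49, adjusted p = 0.00161) and in 12 of the 13 fits that left out 1 library, the exception being the one without control KD replicate D at 0 day. In each of those 13 fits Pygb still fell, with a log2 fold change between -0.51 and -0.47. With letters A to C only it was -0.47 over both time points (adjusted p = 0.00077), -0.47 at 0 day (adjusted p = 0.00786) and -0.49 at 1 day, where it did not pass (adjusted p = 0.130, edgeR).

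The decrease in Pygb was present in each of the 6 pairs of libraries with the same letter and day, as log2 ratios from -0.360 to -0.697. At 0 day the log2 fold change was -0.44 (SE 0.0682, adjusted p = 0.0184, edgeR), and Pygb was the only one of the 32 to pass lower, against 0.220% of tested genes. This call was lost when any 1 of the 0 day libraries was left out, except control KD replicate D (adjusted p from 0.0550 to 0.0819 in those 7 fits). At 1 day it was -0.58 (SE 0.0870, adjusted p = 0.0490, edgeR), again the only one to pass, against 0.0653% of tested genes. The 1 day call was close to its threshold and was lost once the letter entered as a block (adjusted p = 0.0544) and in 11 of 13 fits without 1 library, the exceptions being control KD replicate D at 0 day and YBX3 KD replicate C at 1 day. The effect did not differ detectably between the time points (difference -0.13 on the log2 scale, SE 0.111, adjusted p = 1.00, edgeR).

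As a description of the siRNA 08 seed in all genes, the 883 tested genes with a match had a median log2 fold change of -0.057 after YBX3 KD and 61.2% of them were negative. The 12047 genes without a match had a median of 0.0011 and 49.7% negative. Medians for genes with a match to siRNA 05, 06 and 07 were 0.0130, -0.0241 and 0.0087 (the listed strands of siRNA 07 are not complementary to each other). For the 4 listed nontargeting siRNAs, 01 to 04, they were 0.0736 over 84 genes, 0.0073, 0.0119 and 0.0091. Pygb was among the genes with a match to siRNA 08. The part of this match in the Pygb result was not tested. For the other phosphorylase, Pygm, levels were low, 1.05 to 1.57 CPM with siNT and 1.29 to 2.10 CPM with siYBX3, and its log2 fold change of 0.44 (SE 0.153) did not pass (adjusted p = 0.165, edgeR). Pygm was higher in YBX3 KD in each of the 6 pairs. In CPM it stayed far below Pygb in every library.

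In the glycolytic route itself, no gene passed over both time points in edgeR's test without a block, while 5 of the 19 enzymes from hexokinase to lactate dehydrogenase were lower and 2 higher at an unadjusted p under 0.05, as were 1168 and 1468 of the 16848 tested genes. With the replicate letter as a block, 5 of the 32 genes passed in the lower direction, against 4.38% of tested genes, and 0 in the higher direction, against 5.40%. Besides Pygb these were Gapdh, Pgam1, Pkm and Ldha, 4 abundant enzymes of the steps after aldolase. DESeq2, which in this table passed 3.50% of tested genes in the lower direction, added Eno1 to these 5. The 19 enzymes had a median log2 fold change of -0.14, and 15 of them were negative, beside a median of 0.0008 over all tested genes. Gapdh, Pgam1, Pkm, Ldha and Eno1 were singled out after their values were seen.

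Gapdh (ENSMUSG00000057666, chromosome 6, 125135289 to 125143518, minus strand) was at 1671, 1749, 1761 and 2235 CPM in control KD at 0 day (letters A to D), 1373, 1498, 1413 and 1464 CPM in YBX3 KD at 0 day (A to D), 1809.8 and 1885 CPM in control KD at 1 day (C and D) and 1772, 1555 and 1858 CPM in YBX3 KD at 1 day (B to D). The 4 depleted libraries at 0 day lay under the lowest control, while 2 of the 3 at 1 day lay within their range. Means were 1852 ± 201 CPM with siNT (SD, n = 6) and 1562 ± 184 CPM with siYBX3 (SD, n = 7), and the log2 fold change was -0.27 (SE 0.0820, adjusted p = 0.120, edgeR) and -0.27 with the block (adjusted p = 0.0438). Without letter D it was -0.23 (adjusted p = 0.0386).

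For Gapdh, as for Eno1, reads may be split with near-identical copies. In the annotation 69 other genes, among them many unnamed gene models, each shared at least 20% of its 31-base stretches, and together they carried 104% of the count of Gapdh itself. One of them, Gm13394, was at 1708 ± 240.1 CPM with siNT and 1397 ± 168 CPM with siYBX3. Reads of such copies cannot be assigned with certainty. With all their counts added to Gapdh (an alternative chosen after seeing the data), means were 3816 ± 450.5 CPM and 3165 ± 369.7 CPM, and the log2 fold change was -0.29 (adjusted p = 0.0940, or 0.0424 with the block, edgeR).

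Pgam1 (ENSMUSG00000011752, chromosome 19, 41900341 to 41907104, plus strand), which follows Pgk1 in the route, was at 855, 936, 889 and 984 CPM in control KD at 0 day (letters A to D), 705, 756, 688 and 751 CPM in YBX3 KD at 0 day (A to D), 940.2 and 939 CPM in control KD at 1 day (C and D) and 968, 805 and 897 CPM in YBX3 KD at 1 day (B to D). At 0 day the groups did not overlap, and at 1 day replicate B of YBX3 KD was the highest of the 5 libraries. Its log2 fold change was -0.24 (SE 0.0668, adjusted p = 0.0881, edgeR) and -0.26 with the block (adjusted p = 0.0227). Without the block it passed when YBX3 KD replicate B at 1 day was left out (-0.27, adjusted p = 0.0381) and did not pass with letters A to C only (-0.25, adjusted p = 0.0561).

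Eno1 (ENSMUSG00000063524, chromosome 4, 150321073 to 150337027, plus strand), the main enolase, was at 1150.2, 1183, 1284 and 1311 CPM in control KD at 0 day (letters A to D), 990.4, 1036, 1023 and 969 CPM in YBX3 KD at 0 day (A to D), 1194 and 1157 CPM in control KD at 1 day (C and D) and 1227, 1093 and 1132 CPM in YBX3 KD at 1 day (B to D). Of the depleted libraries, those other than replicate B at 1 day lay under the lowest control. The log2 fold change was -0.20 (SE 0.0621), and it passed neither without the block (adjusted p = 0.131) nor with it (0.0671, edgeR), nor with letters A to C only (-0.19, adjusted p = 0.0912). Eno1 shares sequence with Eno1b and Gm4735, which carried 115% of its count, and with their counts added the log2 fold change was -0.19 (adjusted p = 0.156).

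Pkm (ENSMUSG00000032294, chromosome 9, 59563364 to 59586663, plus strand), which makes pyruvate, was at 1322, 1349.6, 1432 and 1329 CPM in control KD at 0 day (letters A to D), 1164, 1209, 1161 and 1053 CPM in YBX3 KD at 0 day (A to D), 1281 and 1227 CPM in control KD at 1 day (C and D) and 1261, 1083 and 1181 CPM in YBX3 KD at 1 day (B to D). Again 6 of the 7 depleted libraries lay under the lowest control and replicate B at 1 day was not. The log2 fold change was -0.19 (SE 0.0568, adjusted p = 0.113, edgeR) and -0.20 with the block (adjusted p = 0.0421). With letters A to C only it was -0.19 and did not pass (adjusted p = 0.0660). The table gives 1 value per gene and so does not separate the splice forms of Pkm.

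Ldha (ENSMUSG00000063229, chromosome 7, 46490899 to 46505061, plus strand), which turns pyruvate into lactate, was at 932, 1078, 991 and 1188 CPM in control KD at 0 day (letters A to D), 807, 879, 755 and 865 CPM in YBX3 KD at 0 day (A to D), 1116 and 1053 CPM in control KD at 1 day (C and D) and 1129, 945 and 973 CPM in YBX3 KD at 1 day (B to D). The groups were apart at 0 day and overlapped at 1 day. Its log2 fold change was -0.25 (SE 0.0780, adjusted p = 0.126, edgeR) and -0.27 with the block (adjusted p = 0.0339). With letters A to C only it was -0.24 and did not pass (adjusted p = 0.0764). Gapdh, Pgam1, Eno1, Pkm and Ldha, like Pygb, were lower in YBX3 KD in each of the 6 letter and day pairs, a pattern that 7.97% of all tested genes showed. In each of these 5 enzymes the smallest difference was in the pair of letter D at 1 day (log2 ratios from -0.021 to -0.11). YBX3 KD replicate B at 1 day has no control KD library of its letter and day and is in none of the pairs. It lay above each control KD library at 1 day for Pgam1, Eno1 and Ldha, between them for Pkm, and below them for Gapdh and Pygb.

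**Figure D2:**
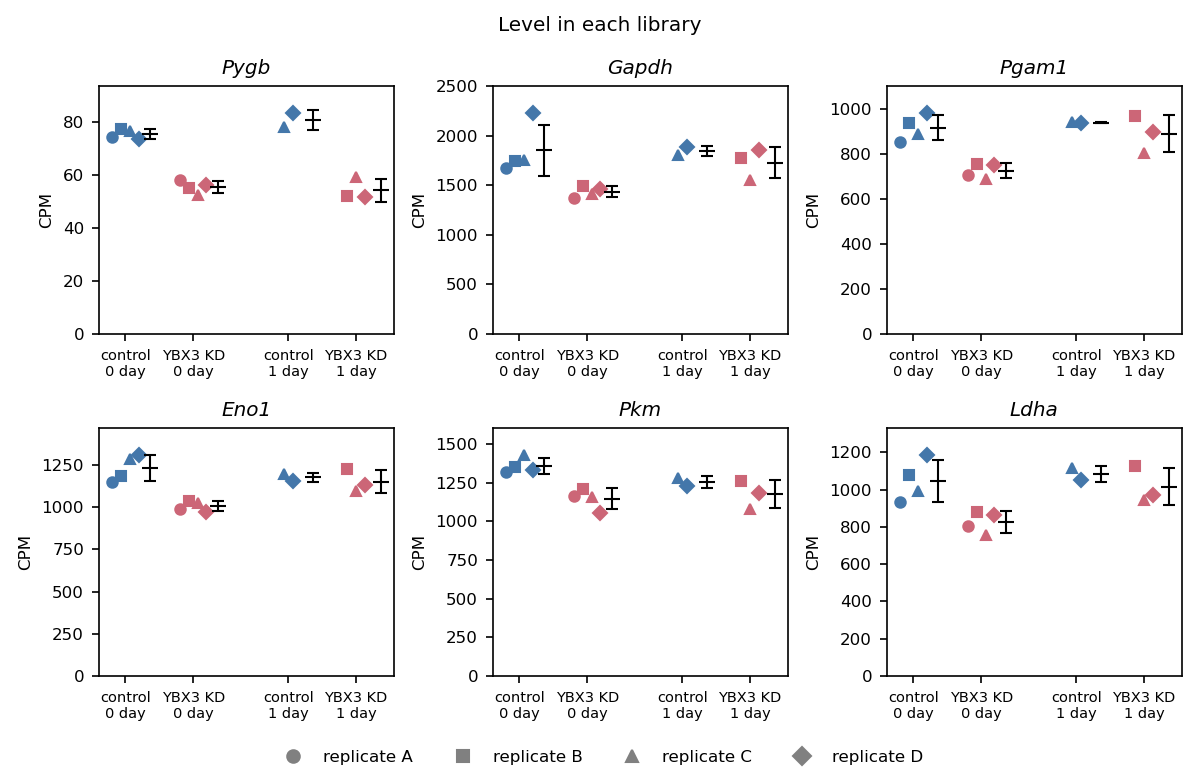
CPM in each library for Pygb and 5 enzymes of the later steps of glycolysis, by siRNA and day; symbols give the replicate letter, and black bars the mean and SD of 4, 4, 2 and 3 libraries. Pygb is between 51.5 and 59.2 CPM in all YBX3 KD libraries and at or above 73.5 CPM in all control KD libraries, whereas the 5 enzymes are apart at 0 day and overlap at 1 day.

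The steps before the trioses did not pass in any direction over both time points. Hk1, which carries most hexokinase mRNA, was at 266, 269.9, 271 and 339.7 CPM in control KD at 0 day (letters A to D), 269.7, 268, 253 and 326 CPM in YBX3 KD at 0 day (A to D), 254 and 318 CPM in control KD at 1 day (C and D) and 245, 253 and 353 CPM in YBX3 KD at 1 day (B to D). The siRNA groups overlapped, with a log2 fold change of -0.03 (SE 0.106), and the libraries of letter D were the highest. Hk2, the isozyme known for its insulin response in muscle, had a log2 fold change of 0.22 (SE 0.0971, adjusted p = 0.295, edgeR). Gpi1 was at -0.23 (SE 0.208).

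Pfkl, the most abundant phosphofructokinase, was at 213, 249, 213 and 378 CPM in control KD at 0 day (letters A to D), 224, 216, 188 and 292 CPM in YBX3 KD at 0 day (A to D), 238 and 317 CPM in control KD at 1 day (C and D) and 262, 242 and 349 CPM in YBX3 KD at 1 day (B to D). Here too the groups overlapped, and the log2 fold changes of Pfkl, Pfkm and Pfkp were -0.11, -0.14 and -0.14 (SE 0.162, 0.118 and 0.119). Pfkp holds a match to the seed of siRNA 05, and its adjusted p was 0.610 (edgeR).

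Aldoa, which also holds such a match, was at 1067, 1142, 1182 and 1802 CPM in control KD at 0 day (letters A to D), 924, 901, 842 and 1075 CPM in YBX3 KD at 0 day (A to D), 1091 and 1304 CPM in control KD at 1 day (C and D) and 982, 1050.3 and 1604 CPM in YBX3 KD at 1 day (B to D). The groups did overlap, since replicate D at 0 day in control KD and at 1 day in YBX3 KD stood far above the other libraries. Its log2 fold change of -0.29 (SE 0.161) did not pass (adjusted p = 0.418, edgeR). With letters A to C only it was -0.27 and passed (adjusted p = 0.0218), in a fit that passed 6.68% of tested genes in the lower direction. Pfkfb3, Aldoa, Gapdh and Pygb were the 4 genes of the group to pass without letter D, Pfkfb3 in the higher direction (0.23, adjusted p = 0.0382, against 5.80% of tested genes).

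The other enzymes of the route did not pass either. Tpi1 had a log2 fold change of -0.21 (SE 0.124), Pgk1 of -0.07 (SE 0.110), Eno2 of 0.20 (SE 0.356), Eno3 of -0.05 (SE 0.101) and Ldhb of 0.01 (SE 0.185). Aldoc (brain aldolase, 0.364 to 0.844 CPM in control KD) and Pgam2 (the muscle mutase, 0.131 to 0.592 CPM) were near the limit of detection, with 10 to 37 and 5 to 59 counts per library. Pgam2 ranged over 0.441 to 1.10 CPM with siYBX3 and was higher in each of the 6 pairs, with a log2 fold change of 0.92 (SE 0.333) that did not pass (adjusted p = 0.188, edgeR). Phkb was also higher in each of the 6 pairs, as were Pygm and Myod1. How many of all tested genes were higher in each pair was not counted. For Pygm and Pgam2, both muscle forms, the summed level of the 10 differentiating muscle markers is a measurement to set beside them: it ranged over 7.55 to 38.3 CPM with siNT and 11.05 to 73.4 CPM with siYBX3, and 7 of 7 tested markers were positive with none passing (1 at an unadjusted p under 0.05 in edgeR, none adjusted in DESeq2). Its part in these values was not tested.

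Pfkfb3 and Pfkfb4 set the level of fructose 2,6-bisphosphate, which activates phosphofructokinase. Pfkfb4 was at 20.5, 16.2, 22.3 and 25.9 CPM in control KD at 0 day (letters A to D), 23.8, 24.0, 28.1 and 30.4 CPM in YBX3 KD at 0 day (A to D), 22.5 and 20.5 CPM in control KD at 1 day (C and D) and 26.8, 18.6 and 29.5 CPM in YBX3 KD at 1 day (B to D). In 5 of 6 pairs the depleted library had the higher value and the groups overlapped, with a log2 fold change of 0.28 (SE 0.127, adjusted p = 0.303, edgeR). Pfkfb3 had 0.25 (SE 0.123, adjusted p = 0.348, edgeR). Pdk1, a kinase that holds back the entry of pyruvate into the mitochondrial pathway, ranged over 54.2 to 139 CPM with siNT and 44.3 to 137 CPM with siYBX3, and its log2 fold change was -0.14 (SE 0.269).

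Of the glycogen genes apart from Pygb, none of the 9 tested passed, and 4 of all 10 were negative. Pgm1, the main phosphoglucomutase, was at 157, 186, 159 and 322 CPM in control KD at 0 day (letters A to D), 177, 164, 148 and 237 CPM in YBX3 KD at 0 day (A to D), 175 and 205 CPM in control KD at 1 day (C and D) and 181, 206 and 378 CPM in YBX3 KD at 1 day (B to D). It followed the letter rather than the siRNA, with a log2 fold change of 0.04 (SE 0.231). Pgm2 had -0.13 (SE 0.0565, adjusted p = 0.292, edgeR).

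On the side of synthesis, Gys1 (glycogen synthase) had a log2 fold change of -0.11 (SE 0.122), Gbe1 (branching enzyme) of 0.07 (SE 0.115) and Ugp2 of -0.04 (SE 0.0688). The subunits of phosphorylase kinase were at 0.10 for Phka1 (regulatory alpha, SE 0.0544), 0.11 for Phkb (regulatory beta, SE 0.111) and 0.50 for Phkg1 (2 to 20 counts per library, SE 0.376). None of these 6 passed. Phka1, the highest of these 3 subunits per kilobase of canonical transcript (Phkb was level with it by exon-union length), was at 43.7, 43.0, 44.1 and 47.8 CPM in control KD at 0 day (letters A to D), 46.7, 45.9, 48.9 and 46.1 CPM in YBX3 KD at 0 day (A to D), 44.6 and 40.8 CPM in control KD at 1 day (C and D) and 43.7, 47.5 and 50.8 CPM in YBX3 KD at 1 day (B to D), with overlapping groups. Among the enzymes of glycogen, Pygb was the 1 whose mRNA passed.

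**Figure D3:**
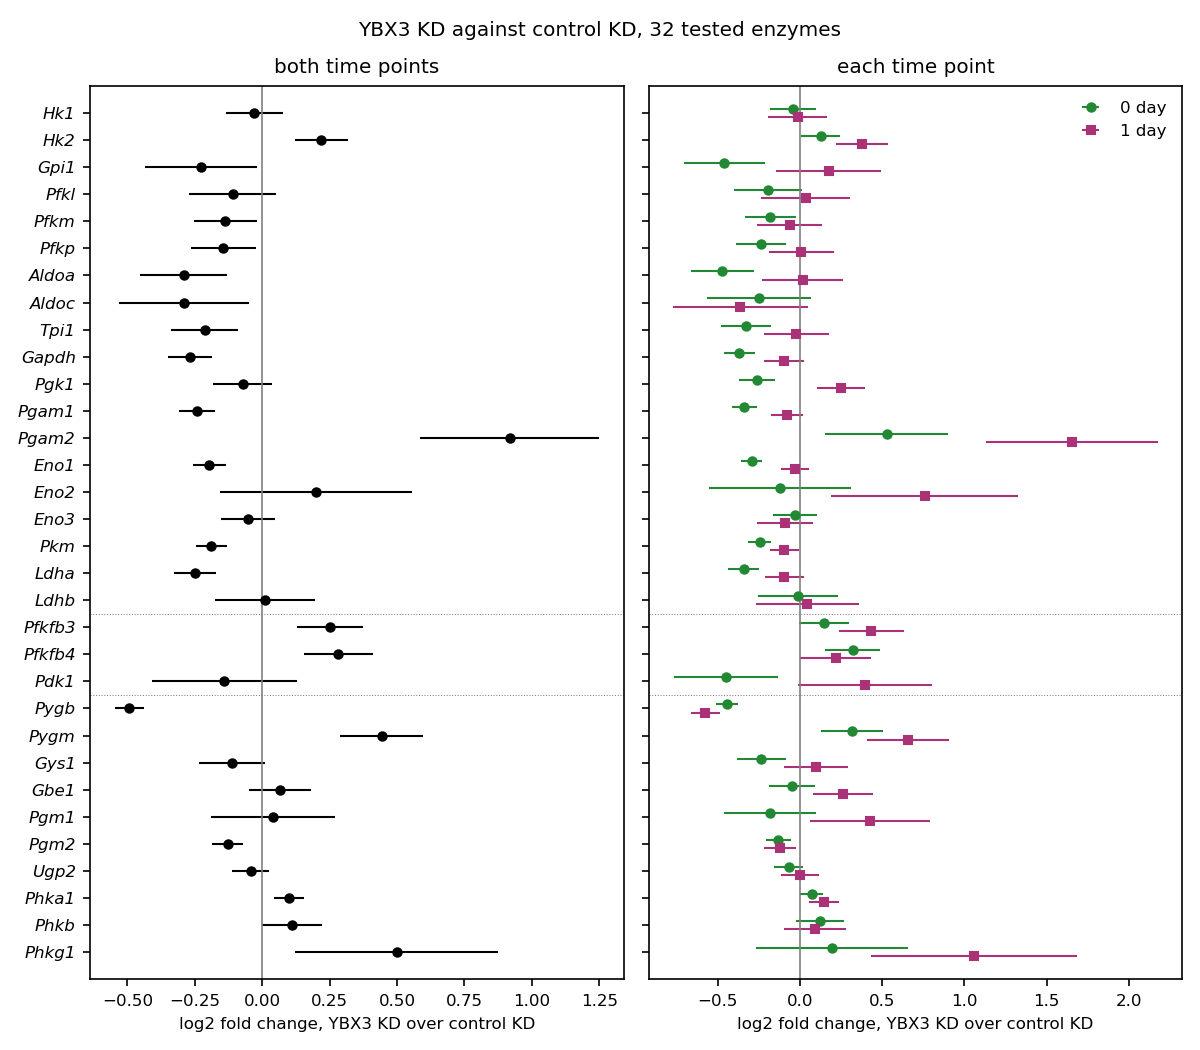
Log2 fold change of YBX3 KD over control KD (points) with its SE (bars) for the 32 tested genes in pathway order, over both time points (left) and at 0 day and 1 day (right); dotted lines separate glycolysis, regulators and glycogen genes. Pygb is at -0.49, the lowest of all, and at 0 day most glycolytic enzymes lie left of 0 while at 1 day they are spread on both sides.

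At 0 day the median over the 32 genes was -0.18 and 24 were negative, beside a median of -0.0039 over all tested genes. With the replicate letter as a block 5 passed lower at 0 day, against 1.00% of tested genes. They were Aldoa (-0.44, adjusted p = 0.0484), Gapdh (-0.36, 0.0446), Pgam1 (-0.34, 0.0232), Eno1 (-0.29, 0.0495) and Pygb (-0.44, 0.0171, all edgeR with the block). Of these, only Pygb passed without the block.

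At 1 day the median was 0.040 and 13 of the 32 were negative. The 5 later enzymes had log2 fold changes between -0.10 and -0.03 at 1 day, against -0.37 to -0.24 at 0 day. The difference between the time points was positive for 27 of the 32 genes, but no gene passed the test of that difference in edgeR, either among the 32 or among all tested genes, and in DESeq2 none of the 32 did and 2 of all genes. At an unadjusted p under 0.05 there were 2 of the 32, Pgk1 (difference 0.51, SE 0.182) and Eno1 (0.26, SE 0.109), and 444 of all tested genes. Among the pairs of libraries, those of letter D were the farthest apart between the days: their median log2 ratio over the 32 genes was -0.36 at 0 day and 0.20 at 1 day, beside -0.017 to -0.17 in letters A to C at 0 day and -0.038 in letter C at 1 day.

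The step from 0 day to 1 day, 24 h in differentiation medium, passed for none of the 32 genes and for 0% of all tested genes in edgeR. At an unadjusted p under 0.05 there were 2 of the 32 (Pgam1, 0.18, and Ldha, 0.19) and 477 of all tested genes, and DESeq2 passed none of the 32 and 2 of all genes. In control KD alone none of the 32 reached an unadjusted p under 0.05, whereas 242 of the 16848 tested genes did. In YBX3 KD alone 7 did, all positive, as did 367 of all tested genes in that direction, among the 7 Pgk1 (0.42, SE 0.119) and Pgam1 (0.30, SE 0.0801), with an adjusted p of 0.988 for each. The difference between these steps is the test given above, which no gene passed. With letters A to C only, Pfkfb3 rose from 0 day to 1 day (0.34, adjusted p = 0.0390, edgeR), against 0.932% of tested genes in either direction.

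More genes of the group passed along the replicate letter than in any other comparison, as was also so for all tested genes. Comparing the 4 libraries of letter D with the 9 of letters A to C, with siRNA and day as terms, 13 of the 32 genes were higher in D and 1 lower at an adjusted p under 0.05, beside 25.5% and 23.3% of all tested genes. Higher in the upper part of the route, where Hk2 and Aldoc did not pass, were Hk1 (0.36), Gpi1 (0.60), Pfkl (0.53), Pfkm (0.36), Pfkp (0.35), Aldoa (0.48) and Tpi1 (0.37). Also higher were Eno2 (1.11), Ldhb (0.61), Pdk1 (0.73), Gys1 (0.36), Pgm1 (0.71) and Phkb (0.35). The lower gene was Eno3 (-0.32).

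Eno2 ranged from 31.04 to 81.1 CPM in the 4 libraries of letter D and from 22.9 to 34.0 CPM in the other 9, and 3 of the 4 were above all 9. Pgm1 ranged from 205 to 378 and from 148 to 206 CPM, again with 3 of 4 above. Hk1, Pfkl, Pfkm, Ldhb and Gys1 were above all 9 in each of the 4. Eno3 was below all 9 in each of the 4, at 293 to 339 CPM against 371 to 438 CPM. Pygb did not follow the letter (-0.01, SE 0.0552). Pgam1 (0.05), Eno1 (-0.01), Pkm (-0.07, SE 0.0564), Ldha (0.05) and Gapdh (0.16, SE 0.0746, adjusted p = 0.0948, edgeR) did not pass either.

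Within letter D the libraries were not alike, and without control KD replicate D at 0 day the value of Gpi1 was 0.36. For Gpi1, Aldoa, Pgm1 and Eno2, control KD at 0 day and YBX3 KD at 1 day were the highest of the 13 libraries, while control KD at 1 day and YBX3 KD at 0 day were nearer to the rest. A list of 15 genes of HIF and the response to low oxygen, Hif1a itself included, does not overlap with the 33. Of these, 14 were tested and 9 were higher in letter D, with none lower, beside 25.5% and 23.3% of all tested genes. The markers of differentiating muscle summed to 7.55 to 20.1 CPM in letter D and to 11.05 to 73.4 CPM in the others. The 3 epithelial markers summed to 3.78 to 7.002 CPM in letter D, nearly all from Krt8 with Epcam at 0, and to 1.23 to 1.90 CPM in the others. What part these differences had in the values of letter D was not tested. The labels do not say what a letter stands for.

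**Figure D4:**
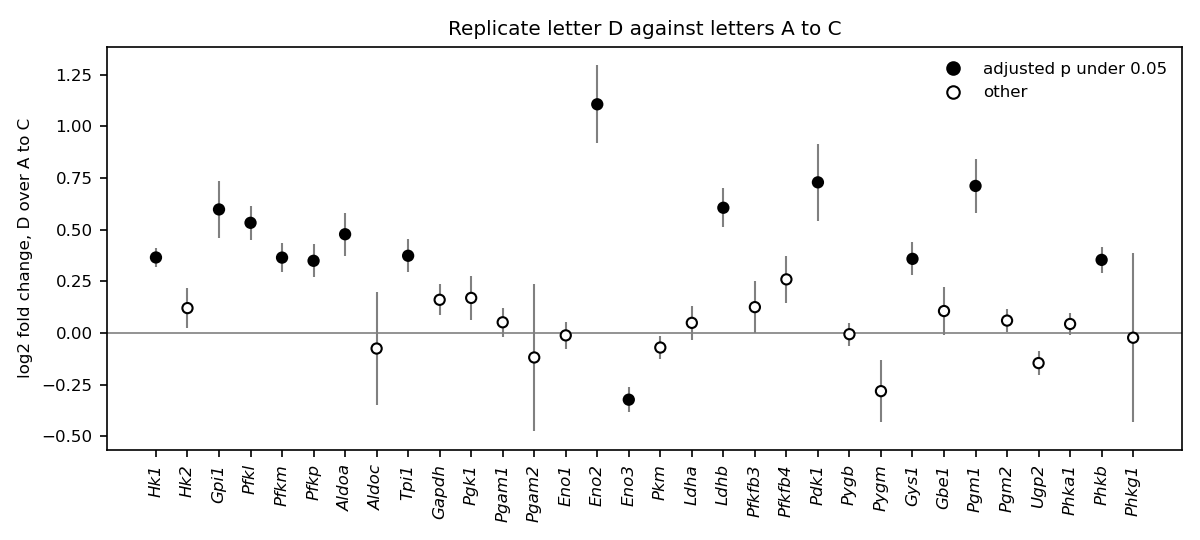
Log2 fold change of letter D (4 libraries) over letters A to C (9 libraries) with its SE for the 32 tested genes, siRNA and day held as terms; filled points have an adjusted p under 0.05. The filled points are 13 above 0, up to 1.11 for Eno2, and Eno3 below 0, while Pygb is at -0.01.

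Around these enzymes, 6 further lists held genes that feed, drain or regulate the route. Over both time points 2 of their 61 tested genes passed after YBX3 KD, both lower, beside 1.04% lower and 1.29% higher of all tested genes. Pdk3, a pyruvate dehydrogenase kinase like Pdk1, was at 43.2, 47.2, 43.2 and 41.0 CPM with siNT and 34.2, 35.4, 37.0 and 35.2 CPM with siYBX3 at 0 day, and at 47.7 and 50.8 CPM and 38.4, 40.0 and 33.2 CPM at 1 day. The groups did not overlap, and the log2 fold change was -0.34 (SE 0.0596, adjusted p = 0.0114, edgeR). Ppp1ca, a catalytic subunit of the phosphatase that acts on glycogen enzymes, averaged 474 ± 28.7 CPM with siNT (SD, n = 6) and 403 ± 23.3 CPM with siYBX3 (SD, n = 7), and its log2 fold change was -0.24 (SE 0.0572, adjusted p = 0.0495, edgeR). With the replicate letter as a block, 6 of the 61 passed, 5 lower and 1 higher, near the background of 4.38% lower and 5.40% higher. Pdk3 and Ppp1ca have no match to the seed of a listed YBX3 siRNA in their 3′ untranslated regions.

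By list, 1 of 19 tested genes of pyruvate and lactate fate (Pdk3) and 1 of 13 other glycogen genes (Ppp1ca) passed. None passed of 8 other glycolytic and fructose 2,6-bisphosphate enzymes, 5 glucose transporters, 2 enzymes of gluconeogenesis and 14 genes of the HIF list. Of these lists in turn, 2, 1, 1 and 3 genes had an unadjusted p under 0.05 (edgeR), for which the counts over all tested genes are given above. DESeq2 passed 1, 0, 0 and 1 genes, beside 1179 of all 16848 tested genes. Slc2a1, the main glucose transporter of growing cells, had a log2 fold change of -0.06 (SE 0.0931). In total the 19 enzymes from hexokinase to lactate dehydrogenase took 1.11 ± 0.118% of all counts in control KD (SD, n = 6) and 0.983 ± 0.118% in YBX3 KD (SD, n = 7), and the ranges of 1.01 to 1.34% and 0.864 to 1.20% overlapped. A share of counts in bulk RNA cannot tell fewer transcripts in each cell from fewer cells that carry them.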

How the data were processed

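RNAseq libraries of 13 C2C12 samples (4 groups, from the labels' descriptions) were analysed. The authors mapped reads with Salmon to GRCm39 with the Gencode M30 annotation and deposited estimated counts per gene, without normalization, as whole numbers; the step that summed and rounded them is not given in the sources used here. Symbols and positions came from GENCODE vM39, which matched 54969 of 55642 identifiers.

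The tests used edgeR 4.0.16 under R 4.3.3 (filterByExpr on the 4 groups, TMM factors of 0.969 to 1.02, estimateDisp, glmQLFit, glmQLFTest), and p-values were adjusted by Benjamini-Hochberg over 16848 genes. YBX3 KD and day were tested in an additive fit, and contrasts within a day and their difference in a fit with 1 coefficient per group. A gene passed at an adjusted p under 0.05. Alternatives were DESeq2 1.42.0, limma-voom (limma 3.58.1), other factors, no filter, replicate blocks, letters A to C only, only the groups compared, no second term, each library left out, exon-union lengths and, added after seeing the data, summed copies and the comparison of letter D. The tests were checked on simulated counts with known changes. Sequences were handled in Python 3.11.15.

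The letters were used to pair the samples. Residuals of all 16 same-letter pairs of libraries from different groups correlated above 0.1 (0.117 to 0.73). This held for 11 of 46 other pairs. It held for 8 of 16 pairs with the same number in the title, which disagrees with the letter at 1 day. Of the same-letter pairs, 6 were of letter D (0.409 to 0.73). Residuals were centred within each group, so a library that stands apart, such as one of letter D, shifts the values of the others. Pairing within letters A to C is therefore not settled by these correlations. No 2 libraries of a group were duplicates.

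The genes, the companion lists and the markers were chosen with earlier results of these data known. Values in each library are given for genes that passed and for the leading isozyme of a step, and others were singled out after their values were seen. Protein sequences were not used here.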

Additional observations from a re-analysis of the deposited data

Results flagged for a closer look

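Checks for a library far from the others (Dixon's ratio against its 95% critical value) covered groups of 4 libraries, 66 checks in all. Pygl in YBX3 KD at 0 day was at 0 in each library and could not be checked. Chance alone gives about 1 in 20 for independent checks, and genes of the same library need not be independent. Among the checks, 9 stood out. Of these, 8 were the control KD library of letter D at 0 day, each time the highest of its group. Hk1 was at 339.7 CPM there (next highest 271 CPM), Hk2 at 85.3 CPM (72.1), Gpi1 at 1023 CPM (515), Aldoa at 1802 CPM (1182), Gapdh at 2235 CPM (1761), Gys1 at 112.8 CPM (76.7), Pgm1 at 322 CPM (186) and Phkb at 49.5 CPM (37.1). The last was Pygl, at 0.0228 CPM in control KD replicate A at 0 day, which is its 1 count in the table, with the other 3 libraries at 0.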

How the results depend on the processing

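No direction reversed among the genes followed through the alternatives, which were Pygb, Gapdh, Pgam1, Eno1, Pkm and Ldha for YBX3 KD and Hk1, Gpi1, Aldoa, Eno2 and Pgm1 for letter D. Over both time points Pygb passed lower under all 22 alternatives (log2 fold change -0.51 to -0.47). The number of genes of the group that passed lower, 1 as reported, was 6 with DESeq2, 5 with the replicate block of the letter, 3 with letters A to C only and 1 to 2 with each library left out. The number higher, 0 as reported, was 1 with letters A to C only. The call at the study's thresholds, 1 as reported, was 0 with no filter and with the replicate block of the letter or of the title number, and 0 to 1 with a library left out. At 0 day the lower count, 1 as reported, was 6 with DESeq2, 5 with the block of the letter, 2 with letters A to C only, 0 with no filter, 0 with the block of the title number and 0 to 1 with a library left out. At 1 day it was 0 with letters A to C only (1 control KD library, assumed to vary like the others), no filter, only the libraries compared and either block, and 0 to 1 with a library left out. The step from 0 day to 1 day gave 1 with letters A to C only and 0 otherwise, and the difference between time points 0 throughout. For letter D the lower count, 1 as reported, was 2 with DESeq2, with relative log expression factors and with copies added, and 1 to 2 with a library left out. Over all genes, 394 passed over both time points as reported, 1179 with DESeq2, 1647 with the block of the letter, 2155 with letters A to C only and 180 with no filter, which tests 30314 genes. The causes of these shifts were not tested. With exon-union lengths the shares of a step were 58.1% for Eno1, 78.8% for Hk1, 57.5% for Pfkl, 32.7% for Pfkm, 87.2% for Pgm1 and 95.5% for Pygb. Depth limits Aldoc, Pgam2, Phkg1 and Pygl, for which no difference was detectable.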
